A study of Mus musculus with 71 samples.

Results

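Eukaryotic mRNAs are commonly destroyed by losing their 5′ cap and then being digested from that end. The genes described here are the 10 that encode the core of this route, chosen by name from a list and found in the deposited tables, out of 21527 genes in all. They comprise Dcp2, the enzyme that cleaves the cap, its activators and partners Dcp1a, Dcp1b, Edc3, Edc4, Patl1 and Ddx6, Dcps, which breaks down the cap fragment left by decay from the 3′ end, and the exoribonucleases Xrn1, mainly cytoplasmic, and Xrn2, mainly nuclear.

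As background, the holoenzyme of Dcp2 is assembled with Dcp1 and Edc4, and Edc3, Patl1 and the RNA helicase Ddx6 recruit and stimulate it, often in cytoplasmic granules called P-bodies. Once the cap is gone, Xrn1 degrades the body of the mRNA, while Xrn2 is best known for ending transcription by RNA polymerase II. The methylation of adenosine to m6A by Mettl3 is known to mark many mRNAs for faster decay, so the same measurements show both how long the mRNAs of these decay factors lasted and how their levels stood when Mettl3 was inhibited.

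The data are SLAM-seq libraries from male mouse embryonic stem cells (mESC) grown in 2i/LIF medium, which keeps them pluripotent. In SLAM-seq, the uridine analogue 4-thiouridine (s4U) is built into new RNA and read as T-to-C conversions, so the loss of conversions after a uridine chase follows the decay of RNA that was already there. All labelled cells received 100 µM s4U for 24 h, and either 20 µM STM2457, a small-molecule inhibitor of Mettl3, or its solvent DMSO was given from 6 h before the chase and throughout it. RNA was collected at 0, 1, 1.5, 2.3, 3.5, 5.3, 8 and 12 h of chase with 4 replicates per group (3 for STM2457 at 3.5 h), and 4 libraries per treatment received no s4U, for which the labels give no length of treatment. This gave 71 libraries in 18 groups. The study's methods describe its replicates as biologically independent, while the labels give only their numbers. The labels also number the chase times without hours, and the hours used here were read from the time line drawn for the experiment in the study. With longer chase the time in STM2457 or DMSO also grew, so time after labelling and time under treatment cannot be told apart within a treatment.

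Each library held 4539726 to 7368244 reads counted on 3′ UTR windows. Of the stem cell markers, 6 were in the tables and 5 of them were above 1 CPM (reads of a gene scaled to the size of its library) in every library, with summed levels of 918 to 1381 CPM in DMSO and 1156 to 1576 CPM in STM2457. The summed markers of other cell types were lower, at 0.63 to 12.8 CPM in DMSO and 1.33 to 9.66 CPM in STM2457 for endoderm, 11.7 to 88.5 and 10.4 to 59.4 CPM for mesoderm, 8.61 to 41.6 and 12.7 to 39.5 CPM for trophoblast, at most 2.02 CPM for the 1 neural marker and at most 2.32 CPM for fibroblasts. Of the 2 trophoblast markers, Elf5 was under 1 CPM in every library and the other was above 1 CPM in every library. In each treatment 2 of the 3 mesoderm markers were also above 1 CPM in every library. For endoderm, neural and fibroblast markers this number was 0. In bulk samples such as these, fewer cells of a type and less RNA per cell cannot be told apart.

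Libraries differed along a main axis, both between groups and between replicates of the same group. The largest component of the read levels, 33% of the variance over 8282 genes, followed the T content of the counted windows (Pearson r = -0.92 across the 71 libraries with the slope of each library's log2 levels on the T share of the windows, both computed from the same reads). That slope ran from -1.42 to 5.32. Its group means were highest at 1 h, at 1.59 in DMSO and 1.93 in STM2457, and at 5.3 h in DMSO, at 1.10, and lowest at 12 h in DMSO, at -1.23. No label names a batch. Because the slope differed between groups, the members' calls are given with it as a covariate wherever that changed them.

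As a description of the letters around which Mettl3 is known to act, sequences around the motif GGAC followed by A, C or T were read from the GENCODE M21 transcripts (GRCm38 coordinates, sense strand), with the motif in capitals. Methylation was not measured in these libraries, and a match is only a stretch of letters. Only the sense strand of the longest well-supported transcript of each gene was searched, and the motif cannot overlap itself. Shown are the first 3 matches in the 3′ UTR of Edc3, the member whose level differed most firmly between treatments, and the match nearest to the stop codon of Ddx6, the other member called in mean level, and of Edc4, which was close to the threshold.
Edc3, 3′ UTR, chr9:57748503-57748527: ctgggcagctGGACCctgtattccc
Edc3, 3′ UTR, chr9:57748572-57748596: gaggctttgtGGACCttgtagacta
Edc3, 3′ UTR, chr9:57748693-57748717: tgtcaggggtGGACCagtggctcca
Ddx6, coding sequence, chr9:44635757-44635781: gagcagctggGGACAgagatcaaac
Edc4, coding sequence, chr8:105892687-105892711: tgatgcacctGGACCacagcgatcc

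The first Edc3 match began 20 bases after the first base of the stop codon. Edc3 carried 27 such motifs, 21 of them in its 3′ UTR of 4004 bases. That is 5.24 per kb of 3′ UTR, the highest density among the members and above that of 83.9% of 10842 tested genes, whose median was 2.67 per kb. Ddx6 carried 16 motifs, 10 in a 3′ UTR of 4250 bases. Edc4 carried 20 and Dcps 7, and neither had a match in the 3′ UTR of the transcript searched (363 and 164 bases), whereas 82.2% of the tested genes had at least 1 there. The windows on which reads were counted were longer, at 520 bases for Edc4 and 254 for Dcps. The other 3′ UTR densities were 4.42 per kb for Xrn2, 2.93 for Dcp1a, 2.88 for Patl1, 2.62 for Dcp2, 1.80 for Xrn1 and 1.30 for Dcp1b.

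Of the 10 members, 9 passed the filter on low counts and were among the 12659 genes tested by edgeR's quasi-likelihood test. Dcp1b, a second Dcp1 protein gene next to Dcp1a, did not. Its window on chromosome 6 had between 0 and 14 reads per library, 134 in all, and none in 38 of the 71 libraries. A count of 0 allows up to 3 reads per library, so no level, difference or half-life could be given for it. Dcp1a is the least certain of the tested members, since 27.9% of its reads mapped to more than 1 place, against at most 2.09% for the others.

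Edc3, a scaffold of the decapping complex (chr9:57708540-57752499, GRCm38), was the member that differed most clearly between treatments: its read level was higher in STM2457. Over the 32 DMSO libraries of the chase its level ran from 41.9 over a median of 60.8 to 90.2 CPM, and over the 31 STM2457 libraries from 48.9 over 79.3 to 103 CPM. The ranges of the whole chase overlapped, but the mean was higher in STM2457 at 7 of the 8 chase times. At 0 h, after 6 h of treatment, the 4 DMSO libraries had 48, 45.3, 67.5 and 67.8 CPM and the 4 STM2457 libraries 80.5, 71.0, 97.2 and 93.0 CPM. At 1.5 h, the values were 61.1, 45.5, 57.7 and 51.2 CPM in DMSO and 89.8, 96.9, 84.4 and 88.2 CPM in STM2457. At both times every STM2457 library lay above every DMSO library, as was seen for 5.94% and 11.5% of tested genes.

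Averaged over the chase, Edc3 was higher by 0.43 on the log2 scale (SE 0.05, 1.34-fold, edgeR adjusted p = 3.4e-10). With the T-share slope as a covariate the difference was 0.39 (adjusted p = 7e-11). The groups did not overlap at 0, 1.5, 3.5, 5.3 and 8 h, 5 of the 8 chase times (groups apart upwards made up 8.56%, 8.22% and 7.09% of tested genes at the last 3), and as many or more such times were seen for 2.80% of the tested genes. By edgeR at single times the difference passed at 1.5 h (0.74, SE 0.15, adjusted p = 2.5e-04) and, narrowly, at 0 h (0.58, SE 0.15, adjusted p = 0.00998), where 4.16% and 1.27% of tested genes were called higher. The call at 0 h held in 2 of the 8 fits that left out 1 replicate, those without DMSO replicate 3 or 4, and the adjusted p reached 0.094 without DMSO replicate 2. With the covariate Edc3 passed at 1.5 and 3.5 h and not at 0 h (adjusted p = 0.011).

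At 12 h the order of the treatments for Edc3 was the other way, without passing the test. DMSO libraries had 73.5, 65.2, 78.6 and 90.2 CPM and STM2457 libraries 73.0, 64.8, 72.9 and 65.5 CPM, a difference of -0.16 (SE 0.15, adjusted p = 0.59). In the test of treatment by time 0 of the 9 members passed by edgeR, with 2 at an unadjusted p under 0.05, against 1.78% of tested genes called. Edc3 had the lowest value (edgeR adjusted p = 0.070, and 0.34 with the covariate). In the libraries without s4U, Edc3 had 65.4, 48.9, 52.6 and 53.5 CPM in DMSO and 77.1, 89.1, 72.5 and 70.6 CPM in STM2457. These groups did not overlap either, as for 6.15% of tested genes, and the difference of 0.49 (SE 0.15) did not pass at the threshold of 0.01 (adjusted p = 0.030).

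The 3′ UTR of Edc3 overlaps exons of Clk3 on the opposite strand. The sources used here do not state whether counting used the strand, although the library kit keeps it. Clk3 itself differed by -0.08 (SE 0.05, adjusted p = 0.18) in the mean over the chase.

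**Figure D1:**
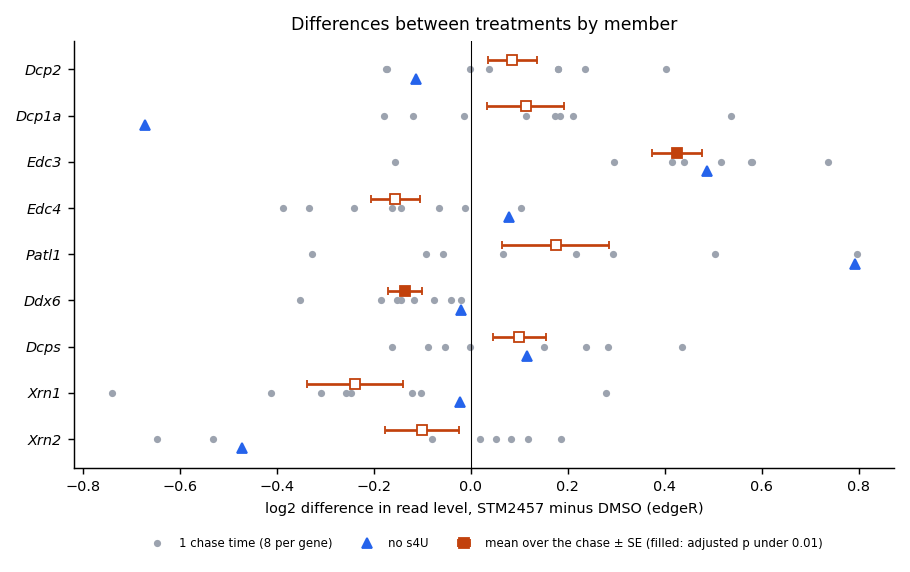
Differences in read level between STM2457 and DMSO for the 9 tested members, on the log2 scale of edgeR. Grey points are the 8 chase times, triangles the libraries without s4U, and squares the mean over the chase with its standard error, filled where the adjusted p was under 0.01. Edc3 at 0.43 and Ddx6 at -0.14 are the filled squares, and all 8 chase times of Ddx6 lie below 0.

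Of the 9 tested members, 2 (22.2%) were called in the mean over the chase, 1 in each direction, against 26.5% of all tested genes (13.9% higher and 12.6% lower in STM2457). The median difference of the 9 members was 0.09 on the log2 scale and ran from -0.24 to 0.43. The share was near the background, so the count says nothing particular of the members. With the T-share slope as a covariate 3 members were called, against 28.2% of tested genes.

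The second member called was Ddx6, the helicase that joins translational repression to decapping. Its level ran from 96.3 over a median of 127 to 188 CPM in the 32 DMSO libraries and from 88.9 over 122 to 160 CPM in the 31 STM2457 libraries, so most of both ranges was shared. The mean over the chase was lower in STM2457 by a small amount, -0.14 (SE 0.04, 0.911-fold, edgeR adjusted p = 0.0018), and the difference was below 0 at 8 of 8 chase times. At 5.3 h the groups were apart, with 120, 131, 125 and 123 CPM in DMSO and 98.1, 91.3, 101 and 99.5 CPM in STM2457 (-0.35, SE 0.10, adjusted p = 0.016). Groups apart in this direction at 5.3 h were seen for 7.85% of tested genes. The call was lost in 4 of the 8 fits that left out 1 replicate, those without DMSO replicate 2 or 4 or STM2457 replicate 1 or 2 (adjusted p of 0.020 to 0.022). Without the libraries at 1 and 5.3 h, a choice made after the data had been seen, the mean difference was -0.09 (adjusted p = 0.071).

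Edc4, the large scaffold that binds Dcp1 and Dcp2, was close to the threshold in the same direction. Its mean difference over the chase was -0.15 (SE 0.05, 0.898-fold, adjusted p = 0.012), and it was below 0 at 7 of 8 chase times. With the T-share slope as a covariate it passed (-0.19, adjusted p = 3.9e-04). The groups were apart at 3.5 h and at 8 h. At 8 h, DMSO libraries had 88.4, 104, 94.7 and 92.8 CPM and STM2457 libraries 80.3, 63.5, 76.8 and 69.8 CPM (-0.39, SE 0.14, adjusted p = 0.12). Groups apart in this direction were seen for 7.14% of tested genes at 3.5 h and 6.57% at 8 h.

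The enzymes themselves were not called. Dcp2, at 21.7 to 53.6 CPM in the DMSO chase and 31.3 to 59.2 CPM in the STM2457 chase, differed by 0.09 (SE 0.05, adjusted p = 0.18) in the mean. Dcps, at 49.5 to 95.7 and 38.9 to 92.5 CPM, differed by 0.10 (SE 0.06, adjusted p = 0.15). Xrn1, at 10.8 to 32 and 6.45 to 29.5 CPM, differed by -0.24 (SE 0.10, adjusted p = 0.052) and Xrn2, at 23.4 to 81.9 and 24.7 to 88.8 CPM, by -0.10 (SE 0.08, adjusted p = 0.32). Of the activators, Dcp1a differed by 0.11 (SE 0.08, adjusted p = 0.28) and Patl1 by 0.18 (SE 0.11, adjusted p = 0.22). In the libraries without s4U, Dcp1a had 21.3, 20, 19.3 and 26.3 CPM in DMSO and 6.56, 17.1, 12.5 and 18 CPM in STM2457, which did not overlap (-0.67, SE 0.22, edgeR adjusted p = 0.053), and groups apart downwards there were seen for 4.69% of tested genes.

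At single conditions the 9 members gave 2 calls in 81 comparisons, both of them Edc3, against 3.23% of all comparisons of the 12659 genes. Members whose groups were apart at 1 condition without passing the test included Dcp2 at 8 h, with 34.4, 31.7, 33.9 and 32.7 CPM in DMSO and 38.6, 40.7, 51.5 and 44.8 CPM in STM2457 (0.40, SE 0.14, adjusted p = 0.086). For Xrn2 at 1.5 h, DMSO libraries had 49.8, 57.9, 40.7 and 57 CPM and STM2457 libraries 36.5, 33, 31.7 and 30 CPM (-0.65, SE 0.21, adjusted p = 0.027). At that time the mean T-share slope was 0.39 in DMSO and -1.06 in STM2457, and with that slope as a covariate the adjusted p of Xrn2 was 0.32. Groups apart upwards were seen for 7.09% of tested genes at 8 h, and downwards for 11.1% at 1.5 h. Dcps at 5.3 h was also apart upwards without passing, as were 8.22% of tested genes in group values. It had 58.1 to 67.7 CPM in DMSO and 78.1 to 92.5 CPM in STM2457. Dcp1a at 1 h, likewise uncalled, had 11.7 to 14.1 CPM in DMSO and 15.7 to 27.5 CPM in STM2457. The highest of these Dcp1a values, 27.5 CPM in replicate 2, stood far from the mean of 16.7 CPM for the other replicates. For groups apart at 1 h alone no share of tested genes is given. Groups apart upwards at 1 or more of the 8 chase times were seen for 30.5% of tested genes.

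**Figure D2:**
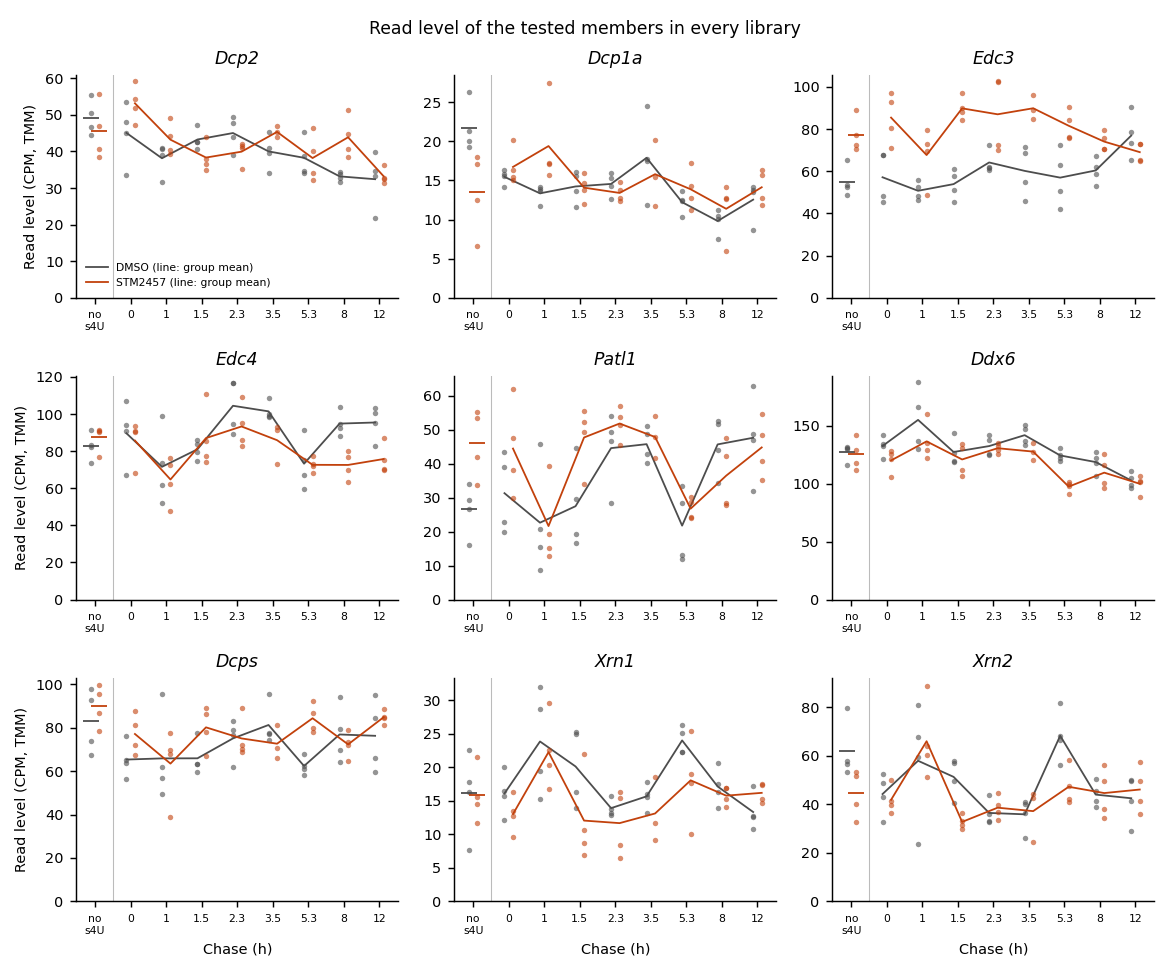
Read level of the 9 tested members (CPM after TMM normalization, axes from 0) against condition, with the libraries without s4U on the left and the chase times in h to the right. Each point is 1 library and lines join group means; Edc3 shows STM2457 above DMSO from 0 to 8 h, and Patl1 dips at 1 and 5.3 h in both treatments.

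Whether the factors changed during the chase was tested within each treatment over its 8 times. In DMSO, 4 of the 9 members passed (Ddx6, Xrn2, Patl1 and Edc4), against 30.1% of all tested genes. In STM2457, 4 also passed (Ddx6, Dcp2, Xrn2 and Patl1), against 19.1%. With the T-share slope as a covariate, 1 member remained called in each treatment, Ddx6, against 15.8% of genes in DMSO and 9.45% in STM2457.

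Ddx6 passed in DMSO (edgeR adjusted p = 1.3e-04) and in STM2457 (adjusted p = 2.5e-04). Its 4 DMSO libraries had 122, 132, 142 and 134 CPM at 0 h and 96.3, 111, 99.0 and 105 CPM at 12 h, and the 4 STM2457 libraries 106, 128, 122 and 125 CPM and later 103, 88.9, 102 and 107 CPM. In DMSO the times did not overlap and the level fell by 0.37 on the log2 scale (SE 0.10, adjusted p = 0.0051), which did not pass with the T-share slope as a covariate (-0.24, adjusted p = 0.084). In STM2457 the difference was -0.27 (SE 0.10, adjusted p = 0.085). Covariate fits gave adjusted p-values of 0.0043 in DMSO and 2.8e-04 in STM2457 for any change over the chase.

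Dcp2 was the other member called lower at 12 h than at 0 h. In STM2457 it had 47.2, 54.4, 59.2 and 52 CPM at 0 h and 31.3, 36.4, 32.3 and 32.8 CPM at 12 h, with every early library above every late one. It fell by 0.68 on the log2 scale (SE 0.14, 0.625-fold, edgeR adjusted p = 4.7e-04), and the covariate fit gave -0.67 (adjusted p = 3.1e-04). In DMSO it had 33.6, 48.1, 45 and 53.6 CPM at 0 h and 39.9, 21.7, 34.7 and 33.4 CPM at 12 h, which overlap. There it fell by 0.48 (SE 0.14, adjusted p = 0.0089), but the covariate fit gave -0.44 without passing (adjusted p = 0.032). Levels lower at 12 h than at 0 h were called for 8.2% of tested genes in DMSO and 3.03% in STM2457.

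Patl1, which bridges Ddx6 and the Lsm ring to the decapping enzyme, varied most of all members over the 18 groups, with an SD of 0.45 of its log2 group means. In DMSO it had 45.6, 15.4, 20.7 and 8.75 CPM at 1 h and 33.4, 28.5, 13.2 and 11.9 CPM at 5.3 h, against 51, 42.9, 40.3 and 48.7 CPM at 3.5 h. The STM2457 libraries were likewise low at 1 h, at 12.7, 19.2, 39.3 and 15.3 CPM, and at 5.3 h, at 30.1, 24.0, 28.6 and 24.2 CPM. Both times were also those with the highest T-share slope in DMSO, whereas in STM2457 the slope was -0.37 at 5.3 h. The adjusted p for any change was 0.0014 in DMSO and 0.0076 in STM2457 without the covariate but 0.35 and 0.088 with it. The tested genes whose 18 group means were most like those of Patl1 were Ubr4 (Pearson r = 0.96), Uqcrc1 (0.96) and Drap1 (0.96), a description over groups that share the same libraries.

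The same dependence was visible between replicates of one group. After group means had been taken off, the level of Dcps was lower in libraries with a higher T-share slope (Pearson r = -0.65, Spearman rho = -0.54, 71 libraries, two-sided permutation within groups with adjusted p = 0.00045 for both). Without the 2 libraries farthest from the median it was r = -0.47, and it was -0.59 in DMSO and -0.72 in STM2457. Patl1 gave r = -0.55 and rho = -0.46 (permutation adjusted p = 0.0053 and 0.0047), with -0.52 without those 2 libraries, -0.77 in DMSO and -0.30 in STM2457. Edc3 gave r = -0.44 and rho = -0.41 (permutation adjusted p = 0.0046 and 0.005), with -0.41 without the 2, -0.35 in DMSO and -0.56 in STM2457.

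The nucleases and the helicase Ddx6 went the opposite way. Xrn2 gave r = 0.60 and rho = 0.48 (permutation adjusted p = 0.00027 and 0.0012), with 0.50 without the 2 libraries, 0.63 in DMSO and 0.60 in STM2457. Xrn1 gave r = 0.39 and rho = 0.42 (permutation adjusted p = 0.0033 and 0.0047), with 0.32, 0.53 and 0.28. Ddx6 gave r = 0.46 and rho = 0.27 (permutation adjusted p = 0.014 and 0.073), with 0.33, 0.51 and 0.43. Edc4 went with Dcps, at r = -0.52 and rho = -0.29 (permutation adjusted p = 0.0058 and 0.067), with -0.35, -0.63 and -0.41. In all, 7 of the 9 members passed by r and 5 by rho after adjustment over the 9. The share of all tested genes passing was not computed, so the count says nothing particular of the members. The T share of the member's own window was 26.5% for Edc3, 26.9% for Edc4 and 30.3% for Dcps, all with negative r. It was 34.5% for Xrn2, 37% for Xrn1 and 40.7% for Ddx6, all with positive r. Patl1, at 39%, had a negative r. Dcp2, at 30.8%, and Dcp1a, at 34.4%, gave r = 0.10 and 0.07 without passing (permutation adjusted p = 0.49 and 0.67). Whether the T share of the window sets the direction was not tested.

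**Figure D3:**
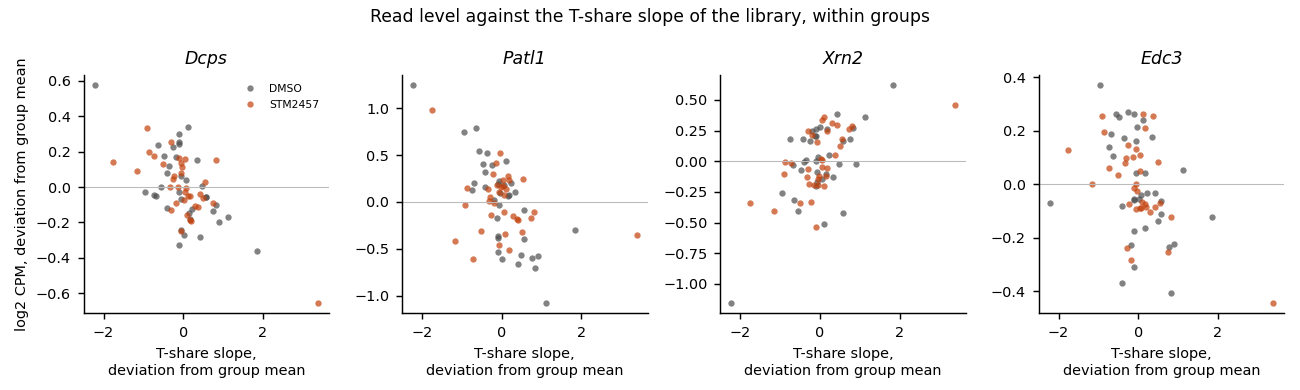
Read level of 4 members (log2 CPM, deviation from the group mean) against the T-share slope of the library (deviation from the group mean), with 1 point per library and both treatments. Dcps, Patl1 and Edc3 fall to the right (r = -0.65, -0.55 and -0.44) and Xrn2 rises (r = 0.60).

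Between 0 h of chase and no s4U, 0 of the 9 members passed in either treatment by edgeR, with 3 at an unadjusted p under 0.05 in DMSO (Dcp1a, Dcps and Xrn2) and 0 in STM2457, and DESeq2 also called 0. Over all tested genes, 0.513% passed in DMSO and 0.521% in STM2457.

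Decay was followed by the T-to-C conversion rate, the share of T positions covered by reads, counted anew for each read, that were read as C. At 0 h the mean rates of the 9 members ran from 1.25% for Dcp1a to 1.78% for Patl1 in DMSO and from 1.15% for Dcp2 to 1.59% for Patl1 in STM2457, against 0.01% to 0.15% without s4U. The rate then dropped unevenly in time. Library-wide it was 1.01% ± 0.035 (SD, n = 4) at 3.5 h and 0.534% ± 0.032 (n = 4) at 5.3 h in DMSO, and 0.927% ± 0.018 (SD, n = 3) and 0.526% ± 0.019 (n = 4) in STM2457. The members followed: the label left, after subtraction of the unlabelled rate and as a share of 0 h, had a median over the 9 of 57.4% at 3.5 h and 11.5% at 5.3 h in DMSO, and of 57.1% and 20.6% in STM2457. For most members a single exponential ran below the points at 3.5 h and above those at 5.3 h, which bears on every half-life given here. Whether these libraries were collected at the hours given was not tested, and other hours would change every half-life.

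**Figure D4:**
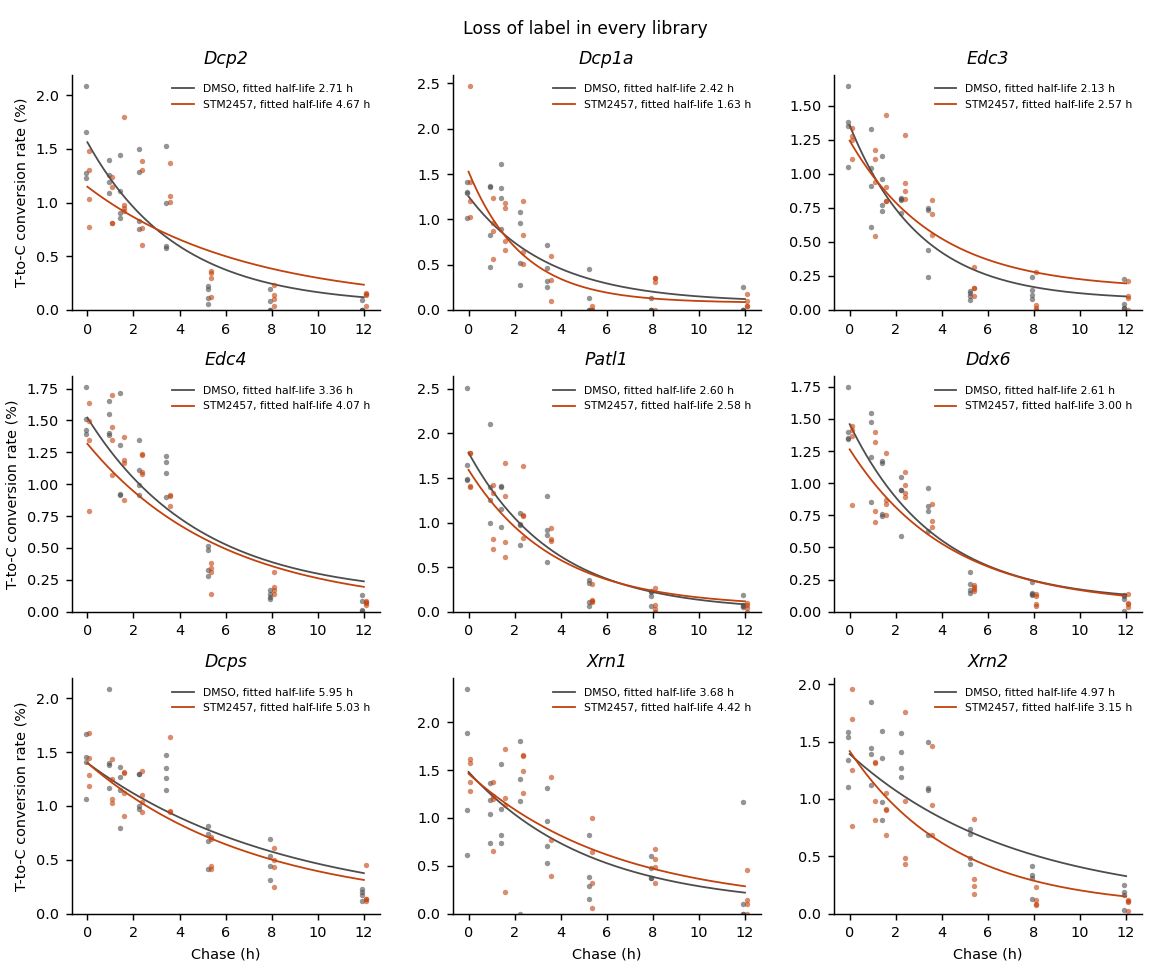
T-to-C conversion rate in percent against hours of chase for the 9 members with a half-life. Each point is 1 library and curves are the fitted exponentials plus the unlabelled mean. Points at 3.5 h mostly lie above the curves and those at 5.3 h below them in both treatments.

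The 9 tested members gave half-lives within the limits, among 7393 transcripts whose median was 3.19 h (DMSO) or 3.45 h (STM2457). In the DMSO controls, fitted over all replicates, the half-lives of most activators lay below the DMSO median, a difference that was not tested. Half-lives were 2.13 h for Edc3, with 18.3% of the transcripts shorter, 2.42 h for Dcp1a, 2.60 h for Patl1, 2.61 h for Ddx6 and 3.36 h for Edc4. Dcp2 had 2.71 h. The mRNAs of Xrn2 and of the scavenger enzyme Dcps had longer values, 4.97 h and 5.95 h, the latter longer than for 90.5% of transcripts. With 1 replicate left out they ran from 4.74 to 5.33 h and from 5.40 to 6.88 h. Xrn1 had 3.68 h, but with 1 replicate left out its value ran from 2.35 to 6.14 h, on both sides of the median of all transcripts.

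Only distant members in this order were apart. The replicate numbers were treated as 4 separate series, which shared the mean background of the 4 unlabelled libraries of their treatment. The half-life of Edc3 in DMSO was then 2.20, 1.51, 2.17 and 3.11 h, and that of Dcps 9.03, 5.62, 7.02 and 3.89 h, with no overlap. Xrn2 had 4.12, 4.97, 5.03 and 6.18 h, above every Edc3 series as well. Each of the 9 overlapped its neighbour in the order. The series of Dcp1a (1.57 to 4.34 h), Patl1 (1.61 to 4.07 h) and Ddx6 (1.90 to 3.57 h) lay on both sides of the DMSO median of all transcripts, 3.19 h. Xrn1 had 1.64, 6.62 and 1.58 h in 3 series, and the remaining one could not be fitted within the limits, so its value is the least certain. The T coverage of its window, summed over reads, was 1221 to 2175 per DMSO library at 0 h, against 18463 to 26188 for Ddx6.

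The largest difference in half-life on the log2 scale was that of Dcp2, from 2.71 h with DMSO to 4.67 h under STM2457. Its series gave 3.21, 2.0, 2.22 and 4.12 h in DMSO (2.88 ± 0.99 h, SD, n = 4) and 6.67, 5.75, 4.10 and 2.67 h in STM2457 (4.80 ± 1.77 h). The series overlapped, and the difference of 0.72 on the log2 scale had a 95% interval of -0.09 to 1.52 (limma adjusted p = 0.73). The label kept through the chase was the mean log2 rate over the later times relative to 0 h. Unlike for the half-lives, the unlabelled rate was not subtracted from it. For Dcp2 it was higher by 0.71 in STM2457 (limma, interval 0.01 to 1.40, unadjusted p = 0.046, adjusted p = 0.998).

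The label of Dcp2 at 0 h was itself lower in STM2457. The rates at 0 h were 1.27%, 2.09%, 1.65% and 1.23% in DMSO and 1.03%, 0.774%, 1.48% and 1.30% in STM2457, which overlap. Since every later rate is divided by that at 0 h, this starting point enters the half-life.

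For Edc3, whose level was higher in STM2457, the half-lives were 2.13 h (DMSO) against 2.57 h (STM2457). The series gave 2.20, 1.51, 2.17 and 3.11 h in DMSO (2.25 ± 0.66 h, SD, n = 4) and 4.06, 2.38, 2.34 and 1.51 h in STM2457 (2.57 ± 1.07 h). The difference of 0.15 (limma, interval -0.62 to 0.92, adjusted p = 0.96) was within the spread of the series. Ddx6 had 2.61 and 3.00 h (difference 0.27, interval -0.44 to 0.97), and Edc4 3.36 and 4.07 h (0.36, interval -0.55 to 1.27).

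Shorter values in STM2457 were seen for Xrn2, at 3.15 h against 4.97 h with DMSO. Its STM2457 series were 8.03, 3.58, 2.93 and 1.31 h, on both sides of the DMSO series, and the difference was -0.63 (interval -1.70 to 0.43, limma adjusted p = 0.82). Dcp1a had 2.42 and 1.63 h (-0.40, interval -1.24 to 0.44), Dcps 5.95 and 5.03 h (-0.32, interval -1.11 to 0.46) and Patl1 2.60 and 2.58 h (-0.10, interval -0.89 to 0.69). In Xrn1, with 3.68 and 4.42 h, the difference was not tested by limma, since 1 DMSO series was missing.

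By half-life 0 of the 8 members tested by limma passed (0 at an unadjusted p under 0.05), and by label kept 0 of 9. The same tests passed 0 of 5756 transcripts (0%), of which 406 had an unadjusted p under 0.05, and 0.00877% of 11408 genes. For each of the 9 members the series of both treatments overlapped, and the half-life interval of each of the 8 tested members held values on both sides of 0. These intervals also held sizeable differences, so a p that missed the threshold does not show that the half-lives were alike.

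**Figure D5:**
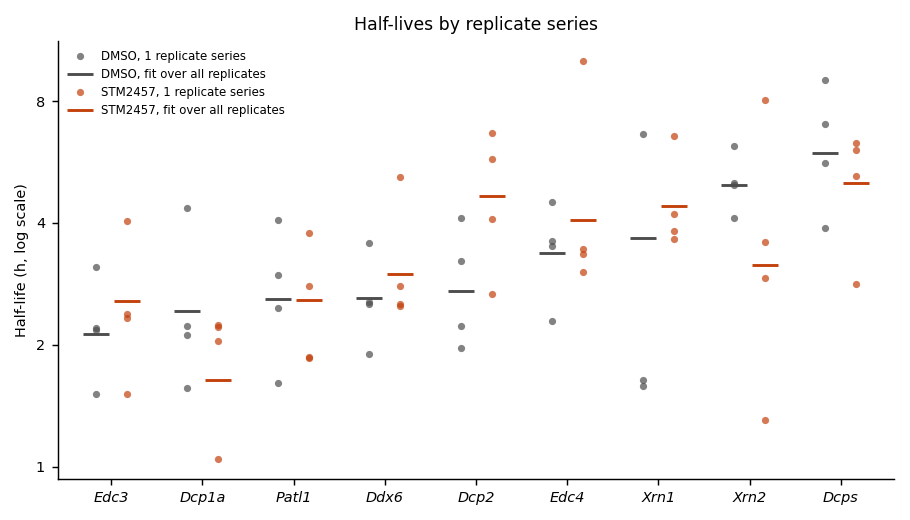
Half-lives in h on a log scale for the 9 members, ordered by the value in DMSO. Points are the replicate series within 0.67 to 18 h and bars the fits over all replicates. Dcp2 shows the widest gap upwards (2.71 and 4.67 h) and Xrn2 downwards (4.97 and 3.15 h), and the points of both treatments overlap for each member.

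The other genes of the pathway, from a list of 22 of which 21 were in the tables and tested, gave 4 calls in the mean over the chase (19%, against 26.5% of all tested genes), 2 higher and 2 lower in STM2457, with a median of -0.07. Dxo, which removes incomplete caps, was higher by 0.54 (SE 0.07, edgeR adjusted p = 7.3e-09), and Lsm1, of the ring that binds deadenylated 3′ ends with Patl1, by 0.22 (SE 0.05, adjusted p = 2.9e-04). Lsm14b, a partner of Ddx6 in P-bodies, was lower, at -0.35 (SE 0.07, adjusted p = 3.8e-05). Nudt12, a NAD-cap hydrolase, was lower at -0.61 (SE 0.20, adjusted p = 0.0099), but not with the T-share slope as a covariate (adjusted p = 0.021).

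By group, 1 of 6 tested Lsm ring genes, 1 of 6 P-body genes, 2 of 5 other cap hydrolases and 0 of 4 Xrn2 partners were called. Half-lives within the limits were found for 16 of these genes, with medians of 3.45 h (DMSO) and 3.66 h (STM2457), 8 longer and 8 shorter in STM2457. Of the 12 tested by limma 0 passed, with 2 at an unadjusted p under 0.05: Lsm1 (0.97, interval 0.09 to 1.84, adjusted p = 0.70) and Eif4enif1, which carries eIF4E into P-bodies (-0.82, interval -1.43 to -0.20, adjusted p = 0.67).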

How the data were processed

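SLAM-seq libraries of 71 samples (QuantSeq 3′ FWD) were analysed. The authors mapped reads with SLAM-DUNK 0.4.3 to GRCm38.p6, left out positions where the unlabelled libraries showed a variant, and counted on 3′ UTR windows matched to GENCODE M23, collapsed to 1 row per gene; FastQC 0.11.8 is named in the submitters' processing notes. They deposited raw counts of reads, multimapping reads, T coverage summed over reads and T-to-C conversions per gene and library, not normalized. They also deposited the conversion rate as a fraction, and CPM, which were computed again here from the counts. Treatments, replicates and the order of the time points were taken from the labels, and hours of chase from the study's drawn time line. No molecular identifiers are stated, so duplicate reads could not be recognised. The limit of 3 reads for a count of 0 covers counting error only.

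The members and lists were chosen with earlier results of these data known. All 10 members are named in the text. Of the pathway list, at most 3 genes called in each direction are named for the mean over the chase, and 2 genes with the lowest p by half-life were named after their values were seen.

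Read counts were tested with edgeR 4.0.16 (TMM, filterByExpr, quasi-likelihood, 18 group means, R 4.3.3) at a Benjamini-Hochberg adjusted p under 0.01 over 12659 genes, with DESeq2 1.42.0 as an alternative. SEs were taken from the quasi-likelihood F. CPM in the text are TMM-normalized for tested members. Half-lives were fitted with an exponential on background-subtracted rates relative to 0 h, and kept with mean T coverage over 100, a residual standard error of at most 0.3 and 0.67 to 18 h. STM2457 series 4 had no library at 3.5 h. All series of a treatment used the same mean background of its 4 unlabelled libraries, so the error of that background is not in the intervals. Half-lives of series and log2(rate in percent + 0.1) were tested with limma 3.58.1 at an adjusted p under 0.05, over 5756 transcripts and 11408 genes. The fold changes of rates are on that log2 scale, which understates low values. Permutations within groups numbered 100000 (numpy 2.4.6, scipy 1.17.1). Tests were also run on simulated data. Of 105 replicate pairs none was identical, and the lowest chi-square per degree of freedom was 2.80. Positions were taken from GENCODE M21 for 21383 genes and RefSeq for 117.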

Additional observations from a re-analysis of the deposited data

Results flagged for a closer look

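Among 170 groups of 4 values (read levels of the 9 tested members in each full group, and half-life series), 12 values stood far from the other 3 by Dixon's criterion of 0.829, where chance alone flags about 1 in 20 groups, or 8.5 of 170.

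In read level these were Dcp1a in STM2457 at 1 h, with 27.5 CPM in replicate 2 against a mean of 16.7 for the others, and in DMSO at 12 h, with 8.72 CPM in replicate 3 against 13.8. Edc3 in DMSO at 2.3 h had 72.4 CPM in replicate 3 against 61.4. Edc4 stood apart 3 times, each in replicate 1, with 77.1 CPM against 90.8 in STM2457 without s4U, 68.2 CPM against 91.6 in STM2457 at 0 h and 109 CPM against 99.0 in DMSO at 3.5 h. Ddx6 in DMSO without s4U had 116 CPM in replicate 4 against 131. Dcps had 89.2 CPM in replicate 3 against 70.4 in STM2457 at 2.3 h, and 95.7 CPM in replicate 3 against 76.5 in DMSO at 3.5 h.

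In half-life, all 3 were STM2457 series. Dcp1a had 1.05 h in series 3 against a mean of 2.17 h, Edc4 10.1 h in series 2 against 3.27 h, and Ddx6 5.19 h in series 1 against 2.60 h. For Edc4 and Ddx6 the longer half-life in STM2457 rested on that series, since without it the difference on the log2 scale was -0.05 for Edc4 and 0.02 for Ddx6.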

How the results depend on the processing

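Edc3 in the mean over the chase passed under every alternative run, with log2 differences between 0.38 and 0.46, and at 1.5 h likewise, between 0.58 and 0.80. Members called in the mean over the chase numbered 1 to 2 when a replicate was left out: without DMSO replicate 2 or 4, or STM2457 replicate 1 or 2, Ddx6 did not pass (adjusted p of 0.020 to 0.022). Edc4 was called with DESeq2 size factors (-0.16), DESeq2 (-0.16), the T-share slope as covariate (-0.19) and without 1 and 5.3 h (-0.18), the last 2 chosen after the data had been seen, and without DMSO replicate 4 or STM2457 replicate 2.

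At single conditions, 2 calls became 1 with DESeq2 size factors, 1 without the low-count filter and 4 with DESeq2, and ran from 1 to 3 with a replicate left out; it was the call of Edc3 at 0 h that was lost. Over the DMSO chase 4 calls became 1 with the T-share slope as covariate and 1 to 6 with a replicate left out (2 without DMSO replicate 2 or 3, 1 without 4). Over the STM2457 chase 4 became 1 with that covariate and 0 to 5 with a replicate left out (1 without STM2457 replicate 1 or 4, 0 without 2). Counts for treatment by time, labelling, half-life and label kept were 0 under every alternative run. Over single members, 445 alternative values kept direction and side of the threshold, 41 no longer passed, 7 newly passed and 18 changed sign. The cause was not tested.

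Uncalled differences that changed sign are given as their range with a replicate left out. In half-life these were -0.10 to 0.37 for Edc3, -0.045 to 0.53 for Edc4 and -0.33 to 0.11 for Patl1. In label kept they were -0.27 to 0.015 for Dcp1a, -0.046 to 0.32 for Edc4, -0.23 to 0.0018 for Patl1, -0.11 to 0.21 for Ddx6, -0.22 to 0.0027 for Dcps and -0.39 to 0.55 for Xrn1. With libraries centred on their median label kept was -0.035 for Ddx6 and -0.11 for Xrn1, and with a pseudocount of 0.2 it was -0.0029 for Xrn1.

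The labels give both treatments replicate numbers 1 to 4. Same-numbered libraries did not deviate together (correlations of 0.006 to 0.027 for half-life series, and a median of 0.003 over 35 pairs for read counts, with 1 above 0.1), so the numbers do not pair the samples. With the replicate number as a block, calls were 3 in the mean over the chase, where Edc4 was added (-0.16, adjusted p = 0.0091), 2 at single conditions, 4 over each chase, and 0 in the other tests.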
